A study of Mus musculus with 6 samples.

Results

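Focal adhesions are the plaques through which cells grip the extracellular matrix. Integrin receptors span the membrane there, and a layer of cytoplasmic proteins ties their tails to actin filaments and sends signals inward. Talins and kindlins bind the integrin tails and switch the receptors on, vinculin reinforces the talin-actin link under tension, and the kinases FAK and Src phosphorylate paxillin and the Crk-associated substrate to control cell spreading and migration. In fibroblasts these plaques are large, and their load on actin feeds mechanical signalling.

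The 35 genes described here encode adaptor, actin-binding and signalling proteins of this layer, with integrins left out. They were taken by symbol from a deposited table of 49315 genes, and all 35 were found. Of these, 34 had at least 1 TPM (transcripts per 1000000, a share of the library corrected for gene length) in at least 3 of the 6 libraries and were tested. Fermt1 did not reach that level.

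RNA came from 3 cultures each of Acvr1R206H/+ (FOP mutant) and Acvr1+/+ (wild-type) mouse embryonic fibroblasts, called R206H and wild type below. Both were isolated at embryonic day 13.5, grown in the same serum-containing medium and harvested at passage 0 after 2 days, with no sorting of cells described. The product of Acvr1 is a receptor kinase for bone morphogenetic proteins and activins, and its R206H allele causes fibrodysplasia ossificans progressiva, in which soft tissue turns to bone. The series asks which transcripts differ with the allele, and its title names mechanical signalling among the themes. The labels do not say whether a culture came from 1 embryo or a pool, nor the strain. The p-values below therefore weigh the difference between genotypes against the spread between these cultures, which may differ from that between embryos.

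The libraries held an estimated 17500000 to 24600000 assigned reads. Defining fibroblast markers were present in every library, with a summed level of 10939 to 13504 TPM in R206H libraries and 7173 to 9340 TPM in wild-type libraries over 10 genes, and 9 of the 10 had a positive log2 change. Of these 10, limma called none and voom called 7 higher (both tests are described below). Epithelial markers summed to 181 to 370 TPM in R206H libraries against 520 to 550 TPM in wild-type libraries over 12 genes. All 9 tested epithelial markers had negative changes, 2 of them called by limma and 6 by voom, and Esrp1, Grhl2 and Ovol1 stayed under 1 TPM in every library. Endothelial markers (8 genes) summed to 17.9 to 23.8 TPM in R206H libraries and 18.5 to 38.6 TPM in wild-type libraries, and macrophage markers (8 genes) to 50.8 to 120.1 TPM in R206H libraries and 59.7 to 92.8 TPM in wild-type libraries. Skeletal muscle markers (10 genes) summed to 487 to 909.7 TPM in R206H libraries and 598 to 807 TPM in wild-type libraries. The sum of 8 smooth muscle and pericyte markers was 339 to 706 TPM in R206H libraries and 321 to 388 TPM in wild-type libraries. That of 6 mesothelial markers was 45.6 to 143 TPM in R206H libraries and 129 to 169 TPM in wild-type libraries. That of 8 neural and glial markers was 261 to 409 TPM in R206H libraries and 403 to 481 TPM in wild-type libraries. Nes alone held 160 to 317 TPM of it in R206H libraries and 333 to 402 TPM in wild-type libraries. Of the 7 neural and glial markers tested, 3 had positive and 4 negative changes. Among them limma called Tubb3 and Prph higher and Sox10 lower. The ranges of the sums were separate for the fibroblast and epithelial lists. The part of these other cells in the results on focal adhesion genes was not tested. In such bulk RNA, fewer cells of a type and less RNA per cell cannot be told apart.

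RefSeq promoter windows (GRCm38.p6) were available for 27 of the 35 genes, 38 windows in all, each running from 250 bases before to 50 bases after a start site. They were searched on both strands for the CArG box, the site of serum response factor, which drives many actin cytoskeleton genes, and for GGAATG, a core of TEAD sites. The motifs share no base in the windows printed. Among these windows, 2 held a CArG box (5.26%, against 1.63% of all 32851 windows), those of Vcl and Fermt2. GGAATG stood in 7 windows (18.4%, against 14.7% of all windows), those of Actn4, Dock1, Flna, Flnc, Lpp and Vcl. A match is a description of the letters, not evidence of binding. The 4 windows printed here are the 2 with a CArG box and those of Bcar1 and Parvb, the 2 genes with the most negative changes among those called lower by voom below. Capitals mark the CArG box, at 227 to 218 bases upstream in Vcl and 204 to 195 in Fermt2, and GGAATG, at 143 to 138 bases upstream in Vcl. The Bcar1 and Parvb windows held neither.
Vcl (chr14:20929148-20929447, plus strand): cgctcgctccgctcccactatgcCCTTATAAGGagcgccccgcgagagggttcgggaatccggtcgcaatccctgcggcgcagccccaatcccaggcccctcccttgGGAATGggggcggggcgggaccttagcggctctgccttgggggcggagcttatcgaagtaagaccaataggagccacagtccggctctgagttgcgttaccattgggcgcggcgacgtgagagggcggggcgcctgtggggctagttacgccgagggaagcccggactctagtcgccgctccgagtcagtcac
Fermt2 (chr14:45530016-45530315, minus strand): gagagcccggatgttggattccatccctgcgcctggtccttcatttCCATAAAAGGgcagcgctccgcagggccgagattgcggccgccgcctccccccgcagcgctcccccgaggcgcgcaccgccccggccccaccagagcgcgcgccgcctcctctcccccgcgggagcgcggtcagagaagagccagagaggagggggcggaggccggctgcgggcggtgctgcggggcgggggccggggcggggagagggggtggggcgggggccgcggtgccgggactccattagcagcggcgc
Bcar1 (chr8:111743800-111744099, minus strand): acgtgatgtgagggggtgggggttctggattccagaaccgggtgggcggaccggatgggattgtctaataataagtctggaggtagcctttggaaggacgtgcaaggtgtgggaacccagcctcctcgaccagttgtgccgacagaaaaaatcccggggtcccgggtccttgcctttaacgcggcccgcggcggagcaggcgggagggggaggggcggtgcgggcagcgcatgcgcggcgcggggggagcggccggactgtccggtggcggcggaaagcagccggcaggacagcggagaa
Parvb (chr15:84231793-84232092, plus strand): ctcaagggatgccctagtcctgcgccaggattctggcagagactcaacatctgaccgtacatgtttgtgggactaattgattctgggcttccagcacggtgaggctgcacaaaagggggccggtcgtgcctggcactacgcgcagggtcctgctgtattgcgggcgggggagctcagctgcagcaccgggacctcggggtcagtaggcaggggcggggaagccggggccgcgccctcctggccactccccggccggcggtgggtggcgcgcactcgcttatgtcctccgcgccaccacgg

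The genes spanned a wide range of levels. Flna, which encodes the actin cross-linker filamin A, averaged 1604 ± 107 TPM in R206H cells and 1507 ± 54.6 TPM in wild-type cells (SD, n = 3 each here and below). Actn1, an alpha-actinin gene, averaged 1311 ± 184 TPM in R206H cells and 1492 ± 94.0 TPM in wild-type cells. At the other end, the kindlin gene Fermt1 had 0.6, 0.663 and 0.0926 TPM in R206H libraries 1, 2 and 3, against 2.31, 1.14 and 0.761 TPM in wild-type libraries 1, 2 and 3. Such low values leave the size of any ratio uncertain. Summed over all 35 genes, the level was 8413, 7789 and 6997 TPM in R206H libraries 1, 2 and 3, against 8398, 8102 and 7973 TPM in wild-type libraries 1, 2 and 3. R206H library 3 had the lowest sum, and R206H library 1 lay above all 3 wild-type libraries. That library 3 was the lowest of the 3 R206H libraries for 26 of the 34 tested genes (76.5%, against 32.7% of all genes tested) and the lowest of all 6 for 20 of them (58.8%, against 22.7%). It also had the lowest summed epithelial, macrophage, skeletal muscle, mesothelial, and neural and glial markers of all 6 libraries, and the highest summed fibroblast markers. Its smooth muscle and pericyte sum was 339 TPM, against 706 and 606 TPM in R206H libraries 1 and 2. Its endothelial sum was the highest of the R206H libraries, with Erg at 15.6 TPM, against 4.39 and 6.96 TPM in R206H libraries 1 and 2. Among these libraries Tek was also highest in library 3, but Kdr, Emcn, Cdh5 and Pecam1 were lowest there. Tie1 and Cldn5 stayed under 1 TPM in all R206H libraries. The part of these markers in the pattern of library 3 was not tested.

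**Figure D1:**
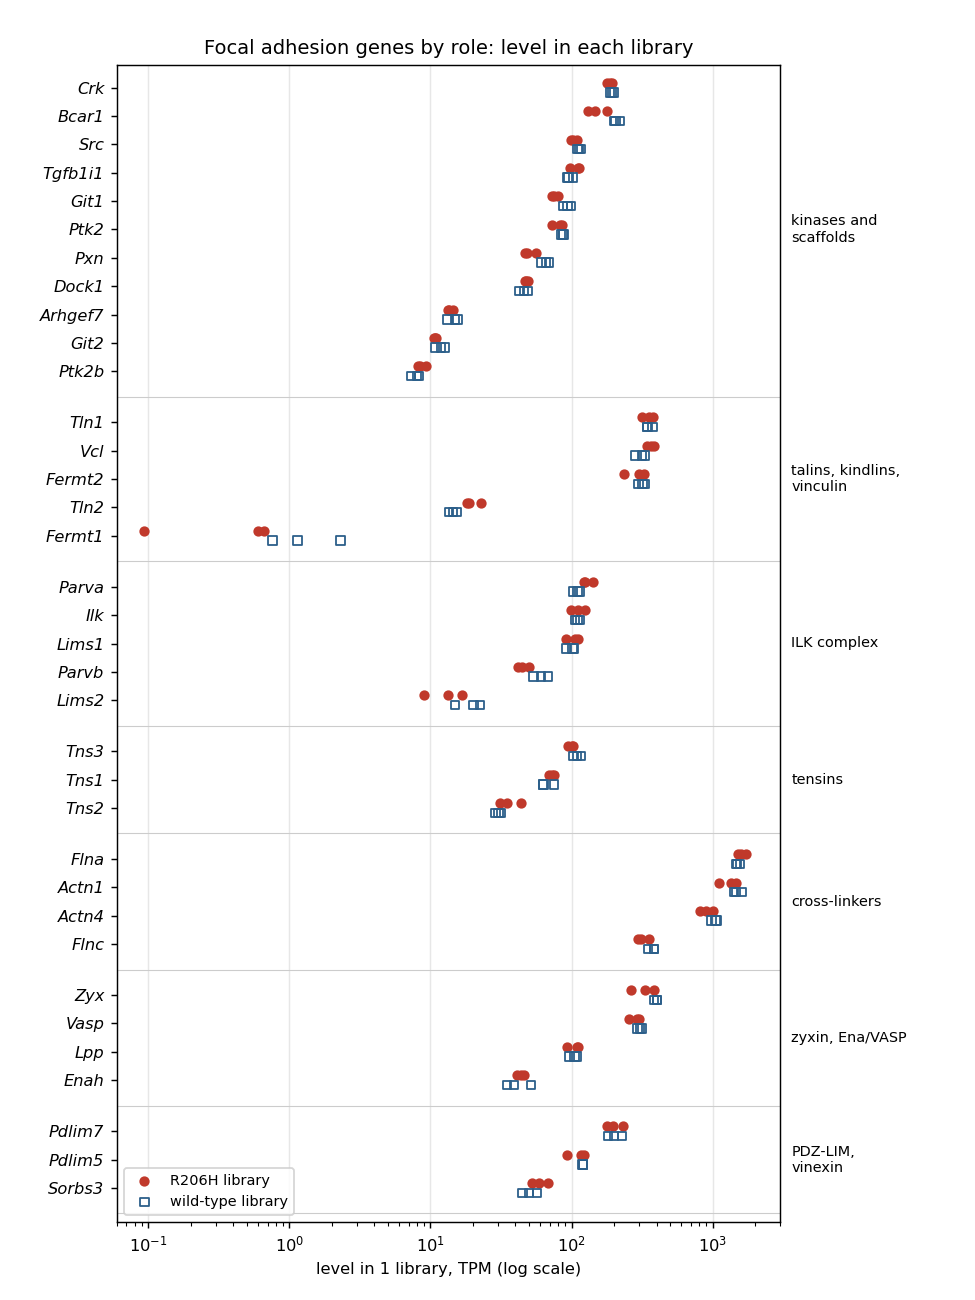
Level of each focal adhesion gene in each library, in TPM on a log axis, grouped by role. Filled circles are R206H libraries and open squares wild-type libraries (3 each). Flna, Actn1 and Actn4 sit highest, Fermt1 sits lowest, and most rows have overlapping groups.

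No focal adhesion gene passed the main test, limma on log2(TPM + 1) with Benjamini-Hochberg adjustment over all 14818 genes at 0.05, in either direction. Over all genes tested, 1.26% were called higher and 0.790% lower in R206H cells. At an unadjusted p under 0.05, 3 of the 34 genes were higher (Tln2, Parva and Vcl, against 14.4% of all genes) and 6 were lower (Bcar1, Parvb, Pxn, Git1, Flnc and Actn4, against 11.7% of all genes). Library values did not overlap between genotypes for 3 genes higher (17.9% of all genes) and 6 lower (15.0% of all genes), with Src and Tns3 in place of Flnc and Actn4. The test on reads rebuilt from TPM, limma voom, called Tln2 higher (1 gene, against 4.61% of all genes) and Bcar1, Parvb, Pxn and Git1 lower (4 genes, against 4.08% of all genes). The median log2 change was -0.06 over the 34 genes and 0.02 over all genes tested, with 14 values positive and 20 negative. Without R206H library 1, limma called Bcar1 and Pxn lower, while its calls over all genes numbered 729 against 303 with all libraries, and 2.22% of all genes were called lower. Without that library 10 of the 34 genes were lower at an unadjusted p under 0.05 (12.1% of all genes), and without wild-type library 1 6 were higher at that p (16.6% of all genes).

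**Figure D2:**
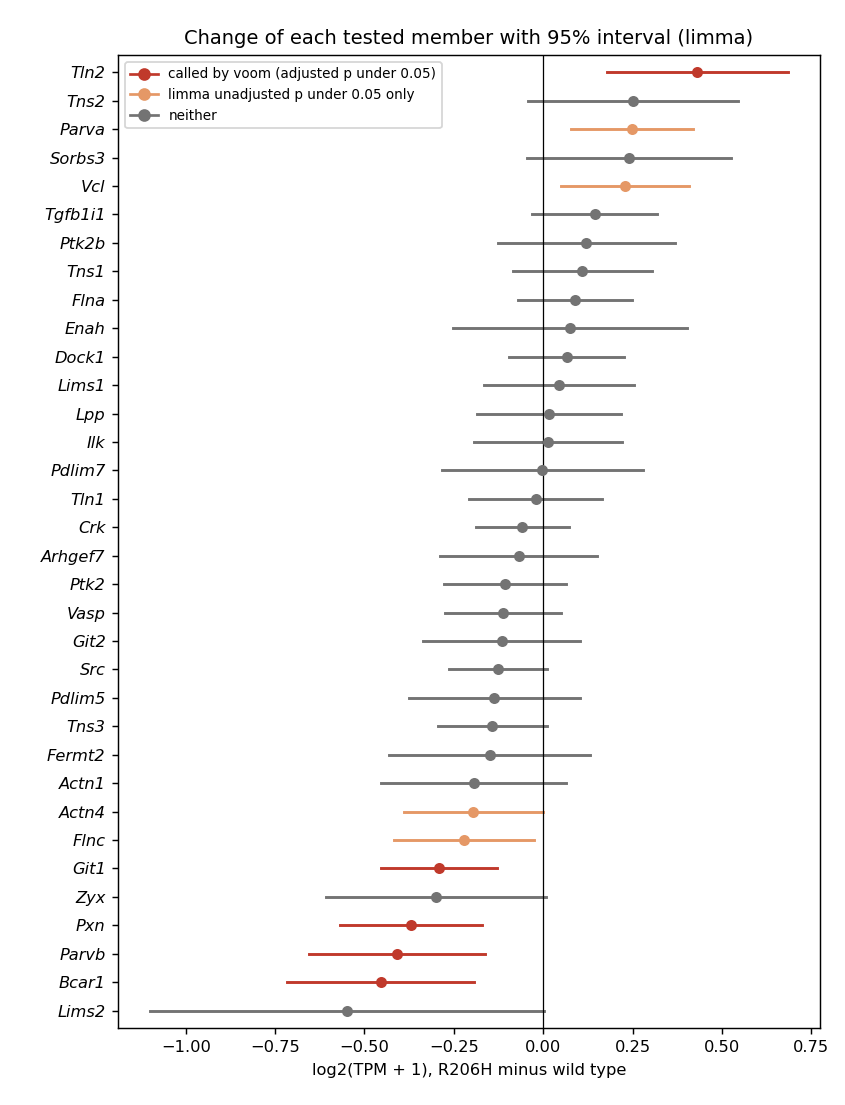
Change of each of the 34 tested genes, as log2(TPM + 1) in R206H minus wild type with the 95% limma interval. Colours mark genes called by voom, genes at an unadjusted limma p under 0.05 and the rest. The values run from -0.55 for Lims2 to 0.43 for Tln2.

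Among the 11 kinases and signalling scaffolds, 8 had negative changes and 3 positive, where 53.6% of all genes tested were positive. The voom test called 3 lower, the scaffolds Bcar1, Pxn and Git1, against 4.08% of all genes. Bcar1 encodes the Crk-associated substrate, a docking protein that Src phosphorylates when the adhesion is stretched (ENSMUSG00000031955, chr8:111710474-111743809, GRCm38). It had 179, 147 and 131 TPM in R206H libraries 1, 2 and 3, against 219.6, 204 and 199.6 TPM in wild-type libraries 1, 2 and 3. All 3 R206H libraries lay below all 3 wild-type libraries, with R206H library 1 nearest to them. The log2 change was -0.45 (95% interval -0.72 to -0.19, limma adjusted p = 0.0722, voom adjusted p = 0.0305, range over the alternatives 0.0277 to 0.19). Its promoter window is printed above.

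Pxn encodes paxillin, the adaptor on which FAK, vinculin and GIT proteins assemble (ENSMUSG00000029528, chr5:115506676-115555987). Its level was 55.8, 47.1 and 48.3 TPM in the R206H libraries, against 69.2, 61.0 and 65.7 TPM in the wild-type libraries. The groups were again separate, with R206H library 1 nearest to the wild-type libraries. The change was -0.37 on the log2 scale (95% interval -0.57 to -0.17, limma adjusted p = 0.0658, voom adjusted p = 0.0267, range over the alternatives 0.0267 to 0.198). Git1, which encodes an Arf GTPase-activating scaffold that binds paxillin and the PIX exchange factors (ENSMUSG00000011877, chr11:77493562-77507786), measured 80.3, 74.5 and 72.9 TPM in the R206H libraries, against 93.6, 87.0 and 99.0 TPM in the wild-type libraries. No R206H library reached the lowest wild-type library. Its log2 change was -0.29 (95% interval -0.45 to -0.13, limma adjusted p = 0.0677, voom adjusted p = 0.0341, range over the alternatives 0.0319 to 0.209).

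The partners of these scaffolds had smaller changes, and neither limma nor voom called any of them. Src, the kinase, had 109.8, 102 and 99.2 TPM in the R206H libraries, against 117, 110.3 and 113 TPM in the wild-type libraries, a separation without overlap and a log2 change of -0.13 (95% interval -0.26 to 0.01). Crk, the adaptor that docks on the Crk-associated substrate, was the most abundant gene of this role at 187, 194 and 178 TPM in the R206H libraries, against 187, 194 and 201 TPM in the wild-type libraries. Its libraries overlapped and the change was -0.06 (95% interval -0.19 to 0.07). Ptk2, which encodes FAK, averaged 80.3 ± 6.80 TPM in R206H cells and 86.4 ± 2.09 TPM in wild-type cells, and its change of -0.11 had an interval of -0.28 to 0.06. The related kinase gene Ptk2b was much lower, at 8.65 ± 0.607 TPM in R206H cells and 7.87 ± 0.51 TPM in wild-type cells. Dock1, a Rac exchange factor downstream of Crk, Arhgef7, the PIX exchange factor that binds GIT proteins, and Git2, a relative of Git1, had log2 changes of 0.07, -0.07 and -0.12. Tgfb1i1, a paxillin relative with LIM domains that shuttles to the nucleus, averaged 107 ± 8.53 TPM in R206H cells and 96.8 ± 4.62 TPM in wild-type cells (log2 change 0.14, 95% interval -0.03 to 0.32).

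Of the 5 integrin-tail activators and vinculin, 4 were tested, and Tln2 had the largest positive change of all 34 genes. Tln2 encodes the less abundant of the talins (ENSMUSG00000052698, chr9:67217087-67559703) and had 18.2, 18.6 and 22.8 TPM in R206H libraries 1, 2 and 3, against 15.3, 14.4 and 13.5 TPM in wild-type libraries 1, 2 and 3. Every R206H library lay above every wild-type library, and R206H library 3 was highest. The log2 change was 0.43 (95% interval 0.18 to 0.68, limma adjusted p = 0.0736, voom adjusted p = 0.0305, range over the alternatives 0.0299 to 0.223). Tln1, the main talin gene in these cells, had 379, 354 and 315 TPM in the R206H libraries, against 375, 343 and 344 TPM in the wild-type libraries. These values overlapped, with a change of -0.02 (95% interval -0.21 to 0.16). Of its exonic bases, 3.67% are shared with Creb3 on the opposite strand.

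Vcl, which encodes vinculin (ENSMUSG00000021823, chr14:20929398-21033676), measured 382, 364 and 341 TPM in the R206H libraries, against 316, 331 and 282 TPM in the wild-type libraries. The groups did not overlap: the lowest R206H library, library 3, lay above the highest wild-type one, library 2. Its log2 change was 0.23 (95% interval 0.05 to 0.41, limma adjusted p = 0.122, voom adjusted p = 0.122, range over the alternatives 0.0598 to 0.309), and neither test called it. Ap3m1 on the opposite strand covers 25.5% of its exonic bases, and without the strand setting reads of the pair cannot be told apart. Ap3m1 averaged 27.0 TPM and Vcl 336 TPM over all libraries. Fermt2, the kindlin gene of mesenchymal cells, averaged 287 ± 47.1 TPM in R206H cells and 316 ± 15.7 TPM in wild-type cells, with R206H library 3 lowest at 235 TPM (log2 change -0.15, 95% interval -0.43 to 0.13). Without R206H library 3 the change of Fermt2 was -0.01.

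The complex of integrin-linked kinase, PINCH and parvin links integrin tails to actin through a pseudokinase, and its parvin genes had changes of opposite sign. Parvb (ENSMUSG00000022438, chr15:84232043-84315688) had 49.98, 44.6 and 42.0 TPM in R206H libraries 1, 2 and 3, against 53.7, 60.7 and 68.3 TPM in wild-type libraries 1, 2 and 3. The highest R206H library stood below the lowest wild-type library. The log2 change was -0.41 (95% interval -0.65 to -0.16, limma adjusted p = 0.077, voom adjusted p = 0.0388, range over the alternatives 0.0246 to 0.217). Parva, the more abundant parvin gene (ENSMUSG00000030770, chr7:112427505-112591692), had 123, 124 and 141 TPM in the R206H libraries, against 110.0, 114 and 103 TPM in the wild-type libraries. Here all R206H libraries were higher than all wild-type libraries. Its change was 0.25 (95% interval 0.08 to 0.42, limma adjusted p = 0.0948, voom adjusted p = 0.0846, range over the alternatives 0.0594 to 0.271), which neither test called.

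The PINCH genes and Ilk were not called either. Lims2, a PINCH gene, measured 16.8, 13.3 and 8.96 TPM in the R206H libraries, against 22.5, 14.97 and 20.2 TPM in the wild-type libraries. The groups overlapped in R206H library 1 and wild-type library 2, and the log2 change of -0.55 had a wide interval, -1.10 to 0.002, and was -0.32 without R206H library 3. Lims1, the other PINCH gene, averaged 103 ± 10.4 TPM in R206H cells and 99.3 ± 6.56 TPM in wild-type cells. Ilk averaged 112 ± 12.7 TPM in R206H cells and 110.1 ± 4.52 TPM in wild-type cells, with a change of 0.01. Its exons overlap Taf10 on the opposite strand over 76.7% of their bases and Rrp8 over 12.9%, so the level of Ilk is uncertain without the strand setting.

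**Figure D3:**
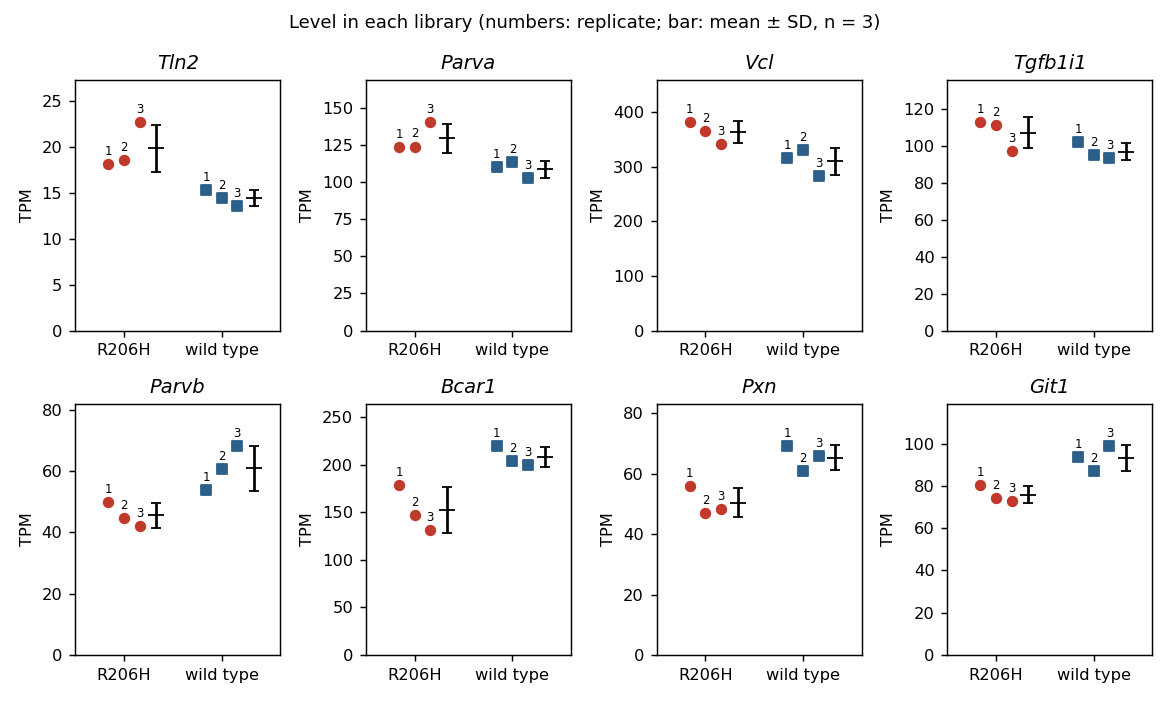
TPM in each library for 8 focal adhesion genes, with the replicate number above each point and the mean ± SD (n = 3) as a bar, R206H at the left of each panel. In the upper row Tln2, Parva and Vcl are separated upward and Tgfb1i1 overlaps. In the lower row Parvb, Bcar1, Pxn and Git1 are separated downward.

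Tensins cap actin filaments at mature adhesions, and none of the 3 was called. Tns3 was the most abundant, with 102, 101 and 94.9 TPM in the R206H libraries, against 117, 103 and 109.5 TPM in the wild-type libraries. Its highest R206H library, at 102 TPM, was just under the lowest wild-type library, at 103 TPM (log2 change -0.14, 95% interval -0.30 to 0.01). Tns2 averaged 36.6 ± 6.66 TPM in R206H cells and 30.3 ± 1.31 TPM in wild-type cells, and its R206H library 3 alone reached 43.9 TPM (log2 change 0.25, 95% interval -0.04 to 0.55). Tns1 had a change of 0.11.

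The 4 actin cross-linkers were the most abundant role, with a summed level of 4540, 4150 and 3721 TPM in R206H libraries 1, 2 and 3, against 4529, 4354 and 4320 TPM in wild-type libraries 1, 2 and 3. R206H library 3 was lowest and R206H library 1 highest. Flna had 1715, 1596 and 1501 TPM in the R206H libraries, against 1567, 1492 and 1461 TPM in the wild-type libraries, which overlapped (log2 change 0.09, 95% interval -0.07 to 0.25). Flnc, the filamin gene best known from striated muscle, measured 356, 309 and 294 TPM in the R206H libraries, against 385, 348 and 383 TPM in the wild-type libraries. R206H library 1 lay within the wild-type range (log2 change -0.22, 95% interval -0.42 to -0.02, limma adjusted p = 0.156). Actn4, an alpha-actinin gene, had 999, 891 and 817 TPM in the R206H libraries, against 981, 1048 and 1064 TPM in the wild-type libraries. R206H library 1 exceeded wild-type library 1 (log2 change -0.20, 95% interval -0.390 to -0.0012, limma adjusted p = 0.19). Actn1 had a change of -0.19 (95% interval -0.45 to 0.06). Without R206H library 3 the changes of Actn4 and Actn1 were -0.13 and -0.08.

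Zyxin and its relative Lpp recruit the Ena/VASP proteins, which lengthen actin filaments at strained adhesions. Zyx had 386, 330.0 and 262 TPM in the R206H libraries, against 403, 385 and 401 TPM in the wild-type libraries. R206H library 1 lay inside the narrow wild-type range while R206H libraries 2 and 3 lay below it, and the log2 change was -0.30 (95% interval -0.61 to 0.01), or -0.15 without R206H library 3. Lpp, Vasp and Enah had log2 changes of 0.02, -0.11 and 0.08. Wild-type library 1 was the highest of all 6 for Enah, at 51.6 TPM. Among the remaining adaptors, Pdlim7, which joins alpha-actinin to kinases through PDZ and LIM domains, had 232, 198 and 178 TPM in the R206H libraries, against 228, 199.9 and 180.4 TPM in the wild-type libraries. The groups overlapped, with a change of -0.0024 (95% interval -0.28 to 0.28). Pdlim5, a related adaptor, had a log2 change of -0.14, and R206H library 3 was its lowest at 92.7 TPM. Sorbs3, which encodes the vinculin-binding protein vinexin, averaged 60.0 ± 8.06 TPM in R206H cells and 50.6 ± 5.98 TPM in wild-type cells (log2 change 0.24, 95% interval -0.04 to 0.52).

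Because TPM is per length, levels of related genes can be set against each other within a library. The size of such a ratio depends on the gene lengths used, which the processing notes do not state. The ratio of Pxn to Tgfb1i1 was 0.493, 0.424 and 0.495 in R206H libraries 1, 2 and 3, against 0.678, 0.643 and 0.702 in wild-type libraries 1, 2 and 3. The R206H values were all lower than the wild-type values. The ratio of Parva to Parvb was 2.47, 2.78 and 3.35 in R206H libraries 1, 2 and 3, against 2.05, 1.87 and 1.502 in wild-type libraries 1, 2 and 3, without overlap. Tln1 exceeded Tln2 by a ratio of 20.8, 19.0 and 13.8 in R206H libraries 1, 2 and 3, against 24.6, 23.8 and 25.4 in wild-type libraries 1, 2 and 3. Here too every R206H library was below every wild-type library. The ratio of Flna to Flnc was 4.82, 5.16 and 5.11 in R206H libraries 1, 2 and 3, against 4.07, 4.29 and 3.81 in wild-type libraries 1, 2 and 3, and that of Zyx to Lpp was 3.09 ± 0.333 in R206H libraries and 3.84 ± 0.27 in wild-type libraries. For Actn1 to Actn4 it was 1.45 ± 0.0833 in R206H libraries and 1.45 ± 0.156 in wild-type libraries, with overlapping libraries. Of 12 pairs, 3 had higher and 5 lower ratios in R206H libraries without overlap, with Ptk2 to Ptk2b and Git1 to Git2 among the lower. The higher pairs include Fermt2 to Fermt1, whose ratio is uncertain because Fermt1 did not reach the level for testing. For single genes, 17.9% of all genes were higher and 15.0% lower without overlap, and no such share was made for pairs. Pxn, Parva, Parvb, Tln2 and Git1 were already separate as single genes, so their ratios partly repeat those values. These ratios are descriptions and were not tested.

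**Figure D4:**
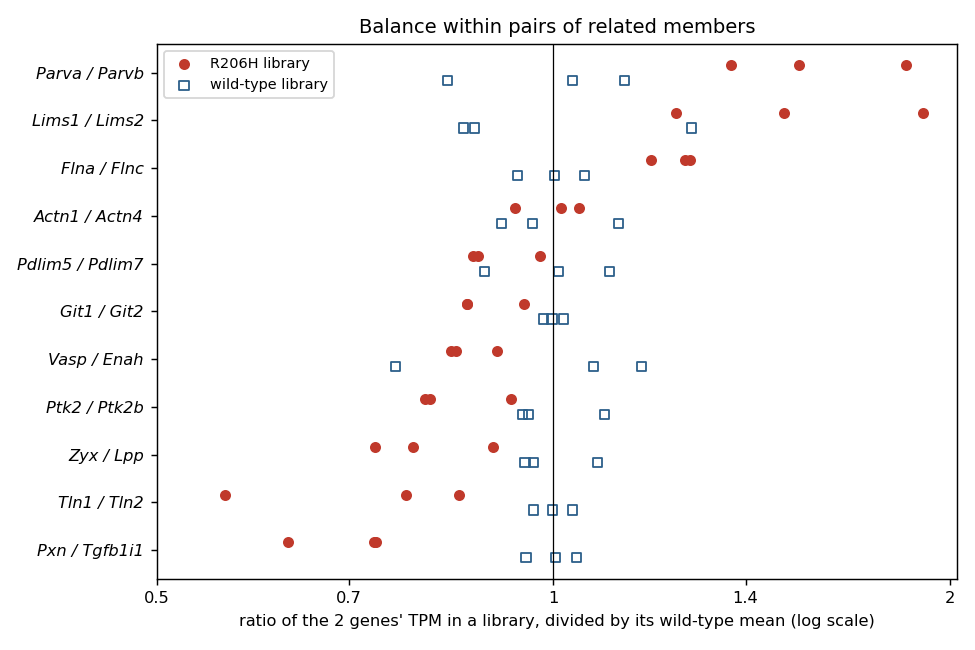
Ratio of the TPM of related genes within each library, divided by the mean ratio of the wild-type libraries, on a log axis. Filled circles are R206H libraries and open squares wild-type libraries (3 each). By the mean of the R206H libraries, Parva to Parvb lies highest and Pxn to Tgfb1i1 lowest, and the groups overlap for Actn1 to Actn4, Lims1 to Lims2, Vasp to Enah and Pdlim5 to Pdlim7. The pair of kindlin genes is left out because Fermt1 was near 0.

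Genes around the plaque were counted in 3 further lists, to be read against the shares of all genes given above (1.26% higher and 0.790% lower with limma, 4.61% and 4.08% with voom). Of 18 integrin receptor genes tested, limma called 1 higher and 2 lower, and voom 3 and 4. Itga11, a collagen-binding subunit, had a log2 change of 1.12 (SE 0.16, limma adjusted p = 0.0454), the laminin-binding subunit gene Itga3 one of -0.95 (SE 0.176, adjusted p = 0.0498) and Itgb7, a leukocyte integrin subunit, one of -1.79 (SE 0.221, adjusted p = 0.0362). Itga6, another laminin-binding subunit, measured 52.8, 46.4 and 37.0 TPM in the R206H libraries, against 63.7, 76.4 and 86.0 TPM in the wild-type libraries, without overlap, and did not pass (log2 change -0.72, limma adjusted p = 0.0593). The median integrin change was -0.16, and the median size regardless of sign was 0.49, against 0.14 for the 34 focal adhesion genes and 0.17 for all genes tested.

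Of 46 tested paralogues and partners of the plaque proteins, limma called 1 higher and none lower (7 in each direction at an unadjusted p under 0.05, near the 14.4% and 11.7% of all genes), and voom 4 and 4. The called gene was Csrp2, a LIM protein of the actin cytoskeleton, with 182, 185 and 175 TPM in the R206H libraries, against 137, 122 and 115 TPM in the wild-type libraries (log2 change 0.54, SE 0.0736, limma adjusted p = 0.0417). Rapgef1, the Rap exchange factor that Crk carries, had 82.3, 78.9 and 81.9 TPM in the R206H libraries, against 96.2, 93.4 and 103 TPM in the wild-type libraries. It was lower in all R206H libraries, with a change of -0.26 that did not pass with limma (adjusted p = 0.0618). Kank4, a relative of talin-binding KANK proteins, averaged 13.0 ± 4.28 TPM in R206H cells and 5.36 ± 1.31 TPM in wild-type cells, and Pdlim4, a PDZ-LIM gene, 30.6 ± 0.78 TPM in R206H cells and 17.5 ± 5.89 TPM in wild-type cells (limma adjusted p = 0.0659 and 0.0726). Of 39 genes of the actomyosin machinery and its regulators, limma called 1 higher and none lower (6 higher and 3 lower at an unadjusted p under 0.05, against 14.4% and 11.7% of all genes), and voom 4 and 1. Myh10, a non-muscle myosin heavy chain, had a change of 0.47 (SE 0.0805, limma adjusted p = 0.0476). Mylk, the myosin light chain kinase, measured 39.0, 35.3 and 25.6 TPM in the R206H libraries, against 21.3, 15.1 and 15.9 TPM in the wild-type libraries, and Cnn1, which encodes the actin-binding protein calponin, 232, 215 and 155 TPM in the R206H libraries, against 115, 122 and 76.7 TPM in the wild-type libraries. Neither overlapped between genotypes, and neither passed with limma (adjusted p = 0.0589 and 0.063). Both were called higher by voom (adjusted p = 0.0227 and 0.0273). Mkl1 (Mrtfa), which encodes an actin-regulated cofactor of serum response factor, had 61.6, 62.4 and 63.1 TPM in the R206H libraries, against 48.8, 49.8 and 54.3 TPM in the wild-type libraries, without overlap. Its log2 change of 0.29 did not pass with limma (adjusted p = 0.0593), and voom called it (adjusted p = 0.0439, range over the alternatives 0.0285 to 0.169). Of the 8 smooth muscle and pericyte markers, 7 had positive changes, with 1 called higher by limma and 3 by voom, and their part in the values of these contractile genes was not tested. Leaving out either R206H library 2 or 3, or either wild-type library 2 or 3, ended all 5 limma calls in these lists, and 0, 0, 4 and 1 genes were then called in the whole table. Leaving out R206H library 1 gave 9 calls in the lists, with 729 in the whole table.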

How the data were processed

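Libraries were made after ribosomal depletion and sequenced as pairs of 150 bp reads, per the labels' protocols. The authors deposited TPM for Ensembl genes in 6 libraries, each summing to 1000000. Per the submitters' processing notes, mm10 and GRCm38 were the builds, and Trimmomatic, STAR, featureCounts, Subread and DESeq2 were among the tools. The gene lengths, annotation release and strand setting behind the TPM are not stated there.

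Reads were rebuilt as TPM times exon-union length from GENCODE M21 (GRCm38). Of values under 100 reads, 91.2% to 91.5% came out whole within 0.05 of a read, which gives the depth estimates. A gene was tested if 3 libraries or more had at least 1 TPM. The main test was limma 3.58.1 (R 4.3.3) on log2 of TPM plus a pseudocount of 1, with a trended prior, no covariate, two-sided p and Benjamini-Hochberg adjustment over all tested genes at 0.05. That scale understates changes of low genes. TPM are shares, so abundant transcripts affect the values of all the rest. limma voom on rebuilt reads and the settings named under the processing alternatives were also run. Tables and plots used Python 3.11.15, pandas 2.3.3 and matplotlib 3.10.9.

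The focal adhesion genes, the lists of integrins, partners, actomyosin genes and cell type markers, the motifs and the alternatives were chosen with earlier results of these data known. Genes were named with all library values when called, at an unadjusted p under 0.05 or the most abundant of their role. Src, Lims2, Fermt1 and others outside that rule were added after their values were seen. In the further lists, called genes and the 4 with the smallest p were named. Mrtfa and Mrtfb were matched by older symbols.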

Additional observations from a re-analysis of the deposited data

How the results depend on the processing

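With 3 libraries a genotype, small calls rest on single libraries. Under pseudocounts of 0.1 and 5, quantile normalization, median-of-ratios scaling and a 5 TPM filter, limma called no focal adhesion gene, with 129, 231, 200, 288 and 587 genes called in the whole table (303 in the main test). Without trend, with no filter and with the replicate block it also called none, but then called 27, 2 and 0 genes in all, which says little about the focal adhesion genes. With library weights it called 1 higher and 4 lower (12.9% of all genes called in either direction), with voom 1 and 4 (8.68%), and at an adjusted p of 0.10 2 and 4 (12.1%). At an unadjusted p under 0.05, 6 were higher with library weights (18.8% of all genes) and 10 lower with voom (13.9%). Leaving out each library in turn gave 0 higher and 0 to 2 lower calls, with 0 to 729 genes called in the whole table. Without R206H library 2 or 3, or wild-type library 2 or 3, only 0, 0, 4 and 1 genes were called in all. Having no call there says little about the focal adhesion genes. At an unadjusted p under 0.05, these fits gave 2 to 6 higher (9.96% to 16.6% of all genes) and 4 to 10 lower (7.48% to 12.1%). Their median log2 change over the focal adhesion genes was -0.09 to -0.02. The further lists had 5 calls, and 3 with a pseudocount of 0.1, 9 with the 5 TPM filter, 3 with quantile normalization, 23 with library weights, 20 with voom, 20 at an adjusted p of 0.10, 0 with no filter, without trend or with the replicate block, and 0 to 9 with a library left out. The log2 change of Pdlim7 turned positive with library weights (0.058) and ran from -0.104 to 0.087 with a library left out. That of Tln1 turned positive with library weights (0.025) and ran from -0.082 to 0.051 with a library left out. The cause was not tested. The deviations of same-numbered libraries from their group means had r of 0.018, 0.0599 and -0.0283 across genes. With 3 libraries a genotype, these values cannot decide whether same-numbered cultures were paired.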
